A study of Mus musculus with 9 samples.

Results

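The mitochondrial chromosome of the mouse encodes 37 annotated genes, and 10 of them are described here. They are the ribosomal RNAs mt-Rnr1 and mt-Rnr2, the complex I mRNAs mt-Nd1, mt-Nd2, mt-Nd4, mt-Nd5 and mt-Nd6, the complex III mRNA mt-Cytb, the complex IV mRNA mt-Co1 and the ATP synthase mRNA mt-Atp6. The genes were chosen by symbol, on levels and differences already known from these 9 libraries, and were matched to the Ensembl identifiers among 46603 identifiers per library. The differences between groups given for them are therefore a description and not an independent test. All 10 were among the 14176 genes that passed the filter on low counts.

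Mitochondrial DNA is transcribed from both strands into long precursor RNAs that span many genes. The precursors are cut mainly at the tRNAs that lie between the coding regions, and most of the mRNAs then receive a short poly(A) tail inside the organelle. Heavy-strand transcription gives both ribosomal RNAs and all mRNAs except mt-Nd6, which comes from light-strand transcription. The resulting proteins join a larger number of nuclear-encoded subunits to form the respiratory chain and the ATP synthase. Mitochondrial DNA and RNA that leave the organelle can be read by the same cytosolic sensors that detect viral nucleic acids.

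RNA sequencing was done on β-actin knockout mouse embryonic fibroblasts of the BALB/c strain, from embryos of day 10.5, and every group carried the knockout. Cells in the poly(dA:dT) group received 10 µg/ml of this synthetic double-stranded DNA for 6 h, and cells in the poly(I:C) group received 10 µg/ml of this synthetic double-stranded RNA for 6 h. Lipofectamine 2000 in Opti-MEM carried both agents, and mock cells received the transfection reagent alone. Each group held 3 libraries, and the labels do not say whether they were separate cultures, so the spread between them may be technical. The labels give neither the extent of the deletion nor the number of embryos or clones behind the cells.

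Total assigned counts ranged from 16082772 to 29219797 per library. Actb had 657, 680 and 716 counts in poly(dA:dT) libraries, 649, 736 and 565 in poly(I:C) libraries and 924, 772 and 658 in mock libraries, so reads at the targeted gene remained in every library. The interferon gene Ifnb1 had 120, 99 and 106 counts with poly(dA:dT), 1935, 2048 and 1377 with poly(I:C), and 1, 0 and 0 in mock cells. The 8 fibroblast markers were detected in every group, with a summed level of 4850 to 4974 CPM, the counts scaled to library size, in poly(dA:dT) libraries, 3931 to 4197 in poly(I:C) libraries and 5588 to 5782 in mock libraries. Of the 6 endothelial markers, Tie1 and Emcn were at 0 in all libraries, and the summed level was 2.74 to 3.25, 4.65 to 4.83 and 0.789 to 1.11 CPM in the same groups. The 7 macrophage markers summed to 8.44 to 8.73, 5.64 to 7.71 and 10.4 to 11.3 CPM, and Ptprc was at 0 in all libraries. The 6 neural markers summed to 365 to 395, 364 to 371 and 404 to 412 CPM with Sox2 at 0 in all libraries. The 6 epithelial markers summed to 8.74 to 9.68, 8.96 to 9.46 and 9.13 to 10.5 CPM, and the 6 muscle markers to at most 0.819 CPM, with Myod1 and Ckm at 0. The part of these shifts in the mitochondrial values was not tested.

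Because the results turn on how far neighbouring genes of 1 chromosome moved apart, the sequences at the ends of that spread are shown first. mt-Nd1 begins the mRNA part of the heavy-strand transcript and mt-Cytb is its last mRNA. The 60 bases given for each come from the GENCODE M21 transcripts of GRCm38, on the plus strand, 5′ to 3′, with the first codon in capitals. They lie at chrM:2751-2810 for mt-Nd1 and at chrM:14145-14204 for mt-Cytb.
mt-Nd1: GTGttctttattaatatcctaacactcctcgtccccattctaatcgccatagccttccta
mt-Cytb: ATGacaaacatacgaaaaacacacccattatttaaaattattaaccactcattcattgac

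The mitochondrial RNAs were lower after poly(dA:dT) and higher after poly(I:C) than in mock cells, relative to the rest of the RNA counted. The 10 genes took 0.242%, 0.244% and 0.246% of the assigned counts in poly(dA:dT) libraries, 0.414%, 0.421% and 0.402% in poly(I:C) libraries and 0.300%, 0.303% and 0.306% in mock libraries. The groups did not overlap, with poly(I:C) highest and poly(dA:dT) lowest. The mean share was 0.244 ± 0.00207% after poly(dA:dT), 0.412 ± 0.00964% after poly(I:C) and 0.303 ± 0.00285% in mock cells (SD, n = 3 each). The share after poly(dA:dT) was 0.806 times the mock share, and the share after poly(I:C) was 1.36 times the mock share and 1.69 times the poly(dA:dT) share. In bulk RNA, fewer mitochondria or cells and less RNA per cell cannot be told apart, and a share also moves with all other RNA in the library. The counts also depend on the selection of polyadenylated RNA by the library kit, named further on. The part of that step was not tested.

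Between poly(dA:dT) and mock, 9 of the 10 genes were called lower and mt-Atp6 was not called. A call here means an adjusted p under 0.05 by edgeR's quasi-likelihood test with Benjamini-Hochberg adjustment over all genes tested. Of all genes tested, 26.2% were called lower and 26.6% higher in this comparison, so that calls in either direction were common. With total counts in place of trimmed-mean scaling, the split of all calls moved to 5004 higher and 2389 lower, against 3769 higher and 3721 lower. The same 9 mitochondrial genes had CPM ranges that did not overlap between the groups, which held in the lower direction for 28.2% of all genes. The median log2 fold change was -0.36 over the 10 genes and 0.01 over all genes tested.

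Between poly(I:C) and mock, 9 of the 10 genes were called higher and mt-Atp6 was again not called. Calls took 39.8% of all genes in the higher direction and 36.3% in the lower one. The CPM ranges did not overlap for 8 of the 10, against 40.3% of all genes in that direction, and the called gene whose ranges overlapped was mt-Rnr1. The median log2 fold change was 0.36 over the 10 genes and 0.04 over all genes. Between poly(I:C) and poly(dA:dT), 9 of 10 were called higher and had ranges that did not overlap, where 31.3% of all genes were called higher, 32.1% lower, and 32.9% had higher ranges without overlap. The median in that comparison was 0.71 over the 10 genes and 0.00 over all genes. The 3 comparisons share their libraries pairwise and are not independent of each other.

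**Figure D1:**
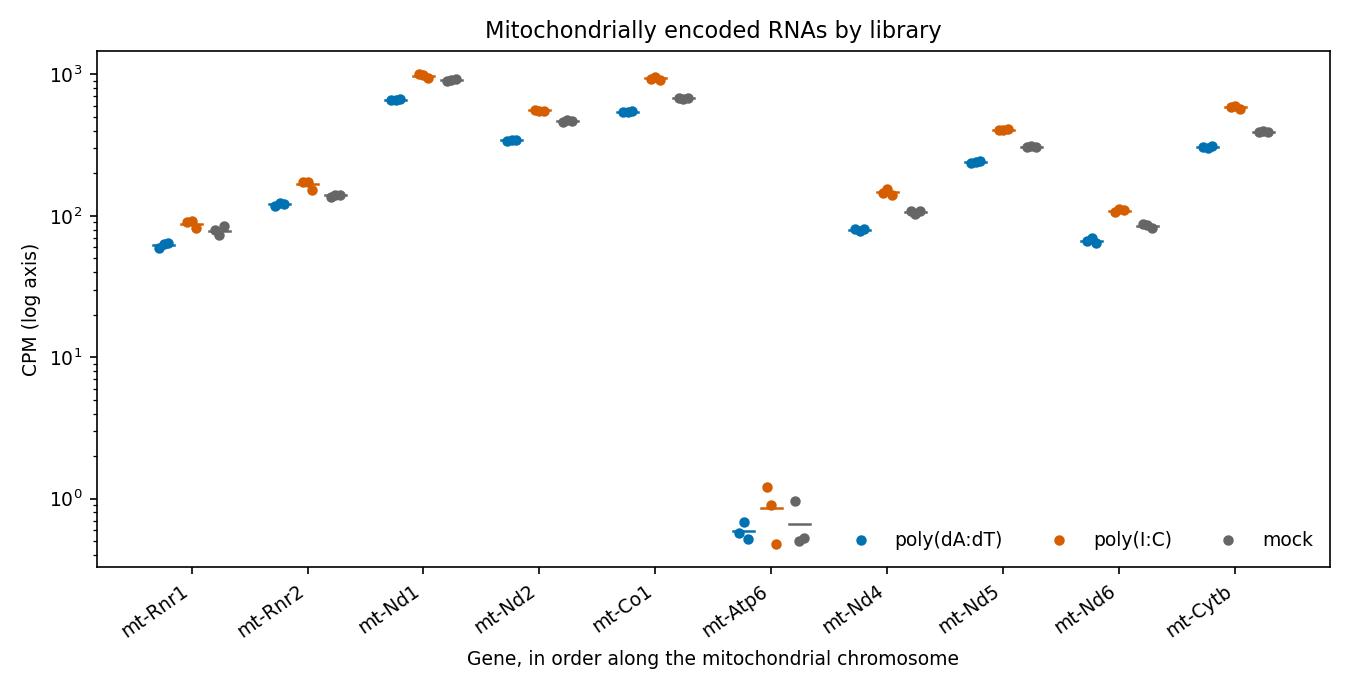
Level of the 10 mitochondrial RNAs in each of the 9 libraries, in CPM on a log axis, with genes in their order along the chromosome. Points are libraries and lines are means of 3 libraries for poly(dA:dT), poly(I:C) and mock. For 9 genes the poly(dA:dT) points lie below the mock points, and mt-Atp6 stays under 1.3 CPM in every library.

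The ribosomal RNAs are the structural RNAs of the mitochondrial ribosome. The library kit named in the labels, TruSeq RNA v2, is known to select polyadenylated RNA, so counts at these genes are not a measure of all ribosomal RNA. mt-Rnr1, the 12S RNA of the small subunit at chrM:70-1024, had 59.6, 63.2 and 64.1 CPM in poly(dA:dT) libraries, 89.8, 92.0 and 82.6 in poly(I:C) libraries and 78.9, 73.1 and 84.2 in mock libraries. All poly(dA:dT) values lay below the mock values, while the lowest poly(I:C) value lay inside the mock range. The log2 fold change was -0.33 ± 0.04 (SE) for poly(dA:dT) against mock and 0.17 ± 0.04 for poly(I:C) against mock. The rise after poly(I:C) lay between 0.12 and 0.29 over the alternatives, and was 0.29 with total counts.

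mt-Rnr2, the 16S RNA of the large subunit at chrM:1094-2675, had 118, 124 and 121 CPM with poly(dA:dT), 173, 174 and 153 with poly(I:C) and 136, 141 and 142 in mock cells. The groups did not overlap. Its log2 fold change was -0.21 ± 0.03 for poly(dA:dT), which was the smallest fall among the 9 genes called, and 0.26 ± 0.03 for poly(I:C). The fall was -0.13 with total counts.

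Complex I, the NADH dehydrogenase that passes electrons to ubiquinone, takes several of its core subunits from mitochondrial DNA, and 5 of these genes are on the list. mt-Nd1, a membrane subunit next to the ubiquinone site and encoded at chrM:2751-3707, had 661, 659 and 667 CPM with poly(dA:dT), 1003, 999 and 944 with poly(I:C) and 892, 910.3 and 935 in mock cells. The poly(dA:dT) values were well below the mock values, and the lowest poly(I:C) value was just above the highest mock value. mt-Nd1 had the largest fall after poly(dA:dT), -0.46 ± 0.02 on the log2 scale or -27.4%, and the smallest called rise after poly(I:C), 0.11 ± 0.02 or 7.71%. Over the alternatives this rise was between 0.08, with no filter on low counts, and 0.22, with total counts.

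mt-Nd2, a proton-pumping membrane subunit encoded at chrM:3914-4951, had 339.9, 343 and 343 CPM with poly(dA:dT), 562, 556 and 550.1 with poly(I:C) and 459, 473 and 469 in mock cells. The 3 groups were separate and each was tight. Against mock, it changed by -0.45 ± 0.02 on the log2 scale after poly(dA:dT) and by 0.25 ± 0.02 after poly(I:C). In its response to poly(dA:dT) it lay close to mt-Nd1, which is its neighbour among the mRNAs of the chromosome.

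mt-Nd4, another proton-pumping subunit encoded at chrM:10167-11544, had 80.9, 78.3 and 80.8 CPM with poly(dA:dT), 145, 154 and 141 with poly(I:C) and 108, 103 and 108 in mock cells. The 3 groups were separate. On the log2 scale it changed by -0.41 ± 0.03 after poly(dA:dT) and by 0.47 ± 0.03 after poly(I:C). Of its 50-base windows, 62.2% also occur in a nuclear pseudogene transcript, as described further on.

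mt-Nd5, the proton-pumping subunit at the far end of the membrane arm, is encoded at chrM:11742-13565. It had 238, 242 and 244 CPM with poly(dA:dT), 404, 406 and 408 with poly(I:C) and 309, 310.2 and 308 in mock cells. Its libraries agreed closely within each group, and the groups were far apart. The log2 fold change was -0.35 ± 0.02 for poly(dA:dT) and 0.40 ± 0.02 for poly(I:C).

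mt-Nd6, a small membrane subunit encoded at chrM:13552-14070 on the minus strand, is the light-strand gene of the list. It runs towards mt-Nd5, and the annotated ends of both genes share 14 base pairs. Where the RNAs themselves end was not measured, so RNA of either gene may reach beyond these bases. Their last 60 bases are shown because counts there can come from either strand, with the shared bases in capitals. Each is given 5′ to 3′ on its own strand of GRCm38 from GENCODE M21, mt-Nd5 at chrM:13506-13565 on the plus strand and mt-Nd6 at chrM:13552-13611 on the minus strand.
mt-Nd5 end: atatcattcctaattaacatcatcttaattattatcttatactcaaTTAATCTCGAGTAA
mt-Nd6 end: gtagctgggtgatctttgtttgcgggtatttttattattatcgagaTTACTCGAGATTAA

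mt-Nd6 had 65.9, 69.7 and 64.4 CPM in poly(dA:dT) libraries, 106, 112 and 109 in poly(I:C) libraries and 87.6, 86.5 and 81.9 in mock libraries. The 3 groups were separate, in the same order as the heavy-strand genes. The log2 fold change was -0.36 ± 0.04 for poly(dA:dT) and 0.35 ± 0.04 for poly(I:C), both inside the range of the heavy-strand mRNAs. The library kit does not mark strand, so RNA of the opposite strand at this place cannot be told apart from mt-Nd6. As given above, the kit is known to select polyadenylated RNA, so these counts are not a measure of all mt-Nd6 RNA.

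Inside each library, the proportion of counts at mt-Nd6, from either strand, to those of the heavy-strand mRNAs differed by less than the spread between replicates. The count of mt-Nd6 divided by the summed counts of the heavy-strand mRNAs of the list was 0.0306 ± 0.00143 after poly(dA:dT), 0.0301 ± 0.000919 after poly(I:C) and 0.0298 ± 0.00129 in mock cells (SD, n = 3 each). The groups overlapped, with a two-sided exact permutation p of 0.5 for poly(dA:dT) against mock and 0.6 for poly(I:C) against mock. Its ratio to mt-Nd5, the gene it overlaps, was 0.276 ± 0.0122 after poly(dA:dT), 0.268 ± 0.00598 after poly(I:C) and 0.276 ± 0.00914 in mock cells, with an exact permutation p of 1 and 0.3 against mock. With 3 libraries against 3 these tests cannot go below 0.1, so they do not show that the strands moved alike.

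Complex III passes electrons from ubiquinol to cytochrome c, and mt-Cytb encodes cytochrome b, its core subunit from the mitochondrial genome, at chrM:14145-15288. mt-Cytb had 305, 302 and 313 CPM with poly(dA:dT), 590.25, 596 and 573 with poly(I:C) and 389, 396 and 392 in mock cells. The groups were widely separate. The log2 fold change was -0.36 ± 0.02 for poly(dA:dT) and 0.58 ± 0.02 for poly(I:C), and the rise after poly(I:C) was 49.6%, the largest of the 10 genes. Against poly(dA:dT), mt-Cytb was higher by 0.94 ± 0.02 on the log2 scale after poly(I:C).

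Complex IV reduces oxygen to water, and mt-Co1 encodes the subunit that holds the site of that reaction, at chrM:5328-6872. mt-Co1 had 539, 543 and 549.7 CPM with poly(dA:dT), 935, 966 and 914 with poly(I:C) and 682, 672 and 676 in mock cells. The groups were separate. On the log2 scale mt-Co1 changed by -0.32 ± 0.02 after poly(dA:dT) and by 0.47 ± 0.02 after poly(I:C).

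mt-Atp6, at chrM:7927-8607, encodes the subunit of the ATP synthase that forms its proton channel. It had 12, 16 and 12 counts in poly(dA:dT) libraries, 25, 21 and 8 in poly(I:C) libraries and 27, 12 and 10 in mock libraries. These were few counts, and the groups overlapped. The log2 fold change was -0.20 ± 0.37 for poly(dA:dT) and 0.37 ± 0.35 for poly(I:C), and without mock replicate 1 the first of these was 0.22. A difference of the size seen in the other genes was not detectable with these counts.

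The low count of mt-Atp6 went along with a copy of the gene in the nuclear genome. Its transcript matched the nuclear pseudogene Gm10925, at chr1:24613974-24614651 on the minus strand, over 678 aligned bases with 0 mismatches. The first 60 bases of both are shown because a read from here cannot be placed by its sequence, with capitals on the 43 bases that mt-Atp6 shares with the end of mt-Atp8. The mt-Atp6 bases lie at chrM:7927-7986 on the plus strand and the pseudogene bases at chr1:24614592-24614651 on the minus strand, both from GENCODE M21 on GRCm38, 5′ to 3′, with 0 differences between them.
mt-Atp6 start: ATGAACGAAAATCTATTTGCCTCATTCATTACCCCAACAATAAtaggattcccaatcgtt
Gm10925: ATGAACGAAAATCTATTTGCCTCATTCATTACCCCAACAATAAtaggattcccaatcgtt

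Sequence shared with nuclear transcripts differed widely among the mitochondrial genes. Of all 50-base windows of a gene, 99.5% occurred in a nuclear transcript for mt-Atp6, 62.2% for mt-Nd4, 51.1% for mt-Co1, 8.19% for mt-Nd2, 7.61% for mt-Nd5 and 1.04% for mt-Rnr2. No window of mt-Nd1, mt-Nd6, mt-Cytb or mt-Rnr1 did. Outside the list, the share was 100% for mt-Co2, 99.9% for mt-Co3, 98.8% for mt-Nd4l and 98.0% for mt-Nd3, and 0% for mt-Atp8. The last 43 bases of mt-Atp8 also begin Gm10925, but they are too few to fill a window of 50. Only annotated transcripts were searched, so copies elsewhere in the nuclear genome were not seen.

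The genes that were nearly fully shared were also those with few counts. mt-Co2 had 1 to 5 counts per library, mt-Co3 had 0 to 8, and mt-Nd4l had 0 in all 9. The nuclear copies took few counts too, with 0 to 3 per library for Gm10925 and 0 or 1 for Gm28439, the copy of mt-Nd4. The sources used here do not give how multi-mapping reads were handled, and the part of that step in these levels was not tested. For mt-Nd4 and mt-Co1, which share part of their length, the level per length is uncertain.

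**Figure D2:**
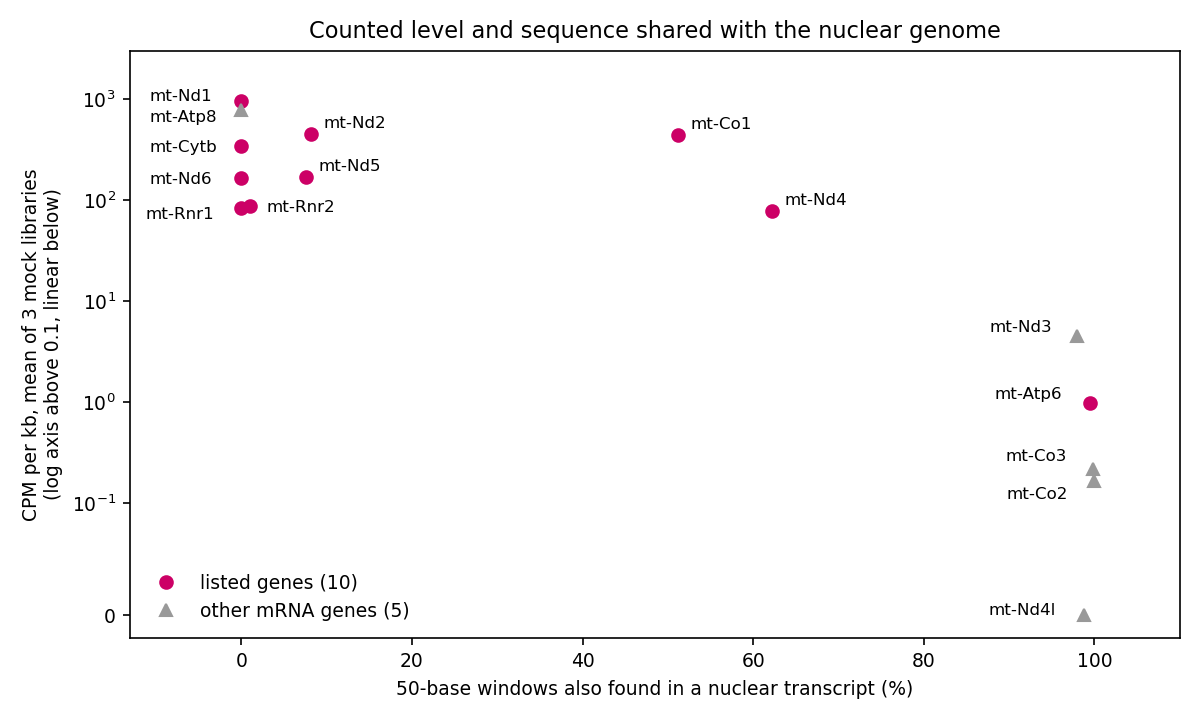
Mean level in the 3 mock libraries, in CPM per kb of transcript, against the percent of 50-base windows that also occur in a nuclear transcript, for the 10 listed genes (circles) and 5 other mitochondrial mRNA genes (triangles). The 5 genes above 97% lie under 5 CPM per kb, and the other 10 genes lie above 70 CPM per kb.

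Levels per length in mock cells spanned a wide range, in which the places of mt-Co1, mt-Nd4 and mt-Atp6 are uncertain because of the sequence they share with nuclear transcripts. mt-Nd1 was highest at 953 ± 22.2 CPM per kb, followed by mt-Nd2 at 449.8 ± 6.98, mt-Co1 at 438 ± 3.05 and mt-Cytb at 343 ± 3.25 (SD, n = 3). mt-Nd5 at 169 ± 0.708 and mt-Nd6 at 164 ± 5.85 CPM per kb did not differ beyond their spread. mt-Rnr2 at 88.2 ± 1.75 and mt-Rnr1 at 82.4 ± 5.82 did not differ beyond theirs, nor did mt-Rnr1 and mt-Nd4 at 77.0 ± 2.03. mt-Atp6 was last at 0.975 ± 0.386 CPM per kb.

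Within the mitochondrial RNA, the balance between genes differed between the groups. mt-Nd1 held 27.3 ± 0.150% of the counts of the 10 genes after poly(dA:dT), 24.7 ± 0.339% after poly(I:C) and 28.8 ± 0.437% in mock cells (SD, n = 3 each). mt-Cytb held 12.6 ± 0.167%, 14.7 ± 0.0417% and 12.4 ± 0.132% in the same groups, and mt-Co1 held 22.4 ± 0.0461%, 23.6 ± 0.250% and 21.4 ± 0.286%. These shares do not use the scaling between libraries, but they depend on the genes summed. Over the genes without a near-identical nuclear copy, the share of mt-Cytb was above mock by 0.551 percentage points with poly(dA:dT) and by 3.81 percentage points with poly(I:C), against 0.245 and 2.35 over all 10. A smaller part of the mitochondrial counts lay on mt-Nd1, and a larger part on mt-Co1 and mt-Cytb, after poly(I:C) than in mock cells.

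The ratio of mt-Cytb to mt-Nd1 counts was 0.461, 0.458 and 0.469 in poly(dA:dT) libraries, 0.588, 0.597 and 0.607 in poly(I:C) libraries and 0.436, 0.436 and 0.419 in mock libraries. The groups did not overlap. The mean was 7.61% above mock after poly(dA:dT) and 38.9% above mock after poly(I:C). Ribosomal RNA counts divided by those of the heavy-strand mRNAs of the list were 0.0842 ± 0.00219 after poly(dA:dT), 0.0704 ± 0.00324 after poly(I:C) and 0.0762 ± 0.00184 in mock cells (SD, n = 3 each). This ratio was thus above the mock values after poly(dA:dT) and below them after poly(I:C), again without overlap.

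**Figure D3:**
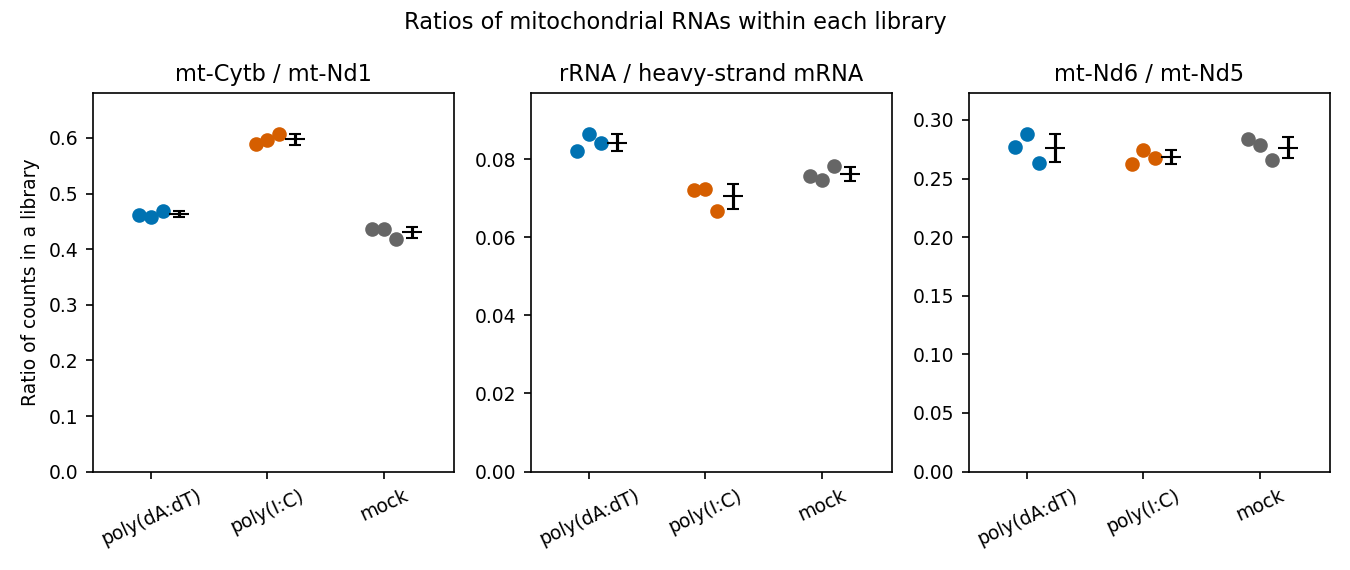
Ratios of counts within each library for mt-Cytb to mt-Nd1, for ribosomal RNAs to the heavy-strand mRNAs of the list, and for mt-Nd6 to mt-Nd5. Points are libraries and the mark beside them is the mean ± SD of 3 libraries. The first ratio is near 0.6 after poly(I:C) and between 0.4 and 0.5 in the other groups, and the third overlaps between all groups.

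Among the listed heavy-strand genes, those later on the transcript mostly had the larger rise after poly(I:C), but the other 2 tested genes of that strand did not follow. For the 8 listed genes of the heavy strand other than mt-Atp6, the log2 fold change of poly(I:C) against mock ran with position at a Pearson r of 0.83 and a Spearman rho of 0.79. It was lowest for mt-Nd1 and highest for mt-Cytb. For poly(dA:dT) against mock the same values were -0.19 and -0.21, and the largest fall was that of mt-Nd1. These are descriptions over 8 genes of the same 9 libraries and of 1 transcript, which are not independent. mt-Rnr1 and mt-Rnr2 lie before mt-Nd1 and did not continue the order, with rises of 0.17 and 0.26. mt-Atp8, a well counted gene outside the list that lies between mt-Co1 and mt-Nd4, had 0.15, below the 0.47 of both. With mt-Atp8 added after its values were seen, r was 0.72 and rho 0.62 over 9 genes. With mt-Nd3 added too, at -0.68 from few counts, r was 0.13 and rho 0.44 over 10 genes, so the order was seen for the listed genes and not for all tested genes of the strand.

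**Figure D4:**
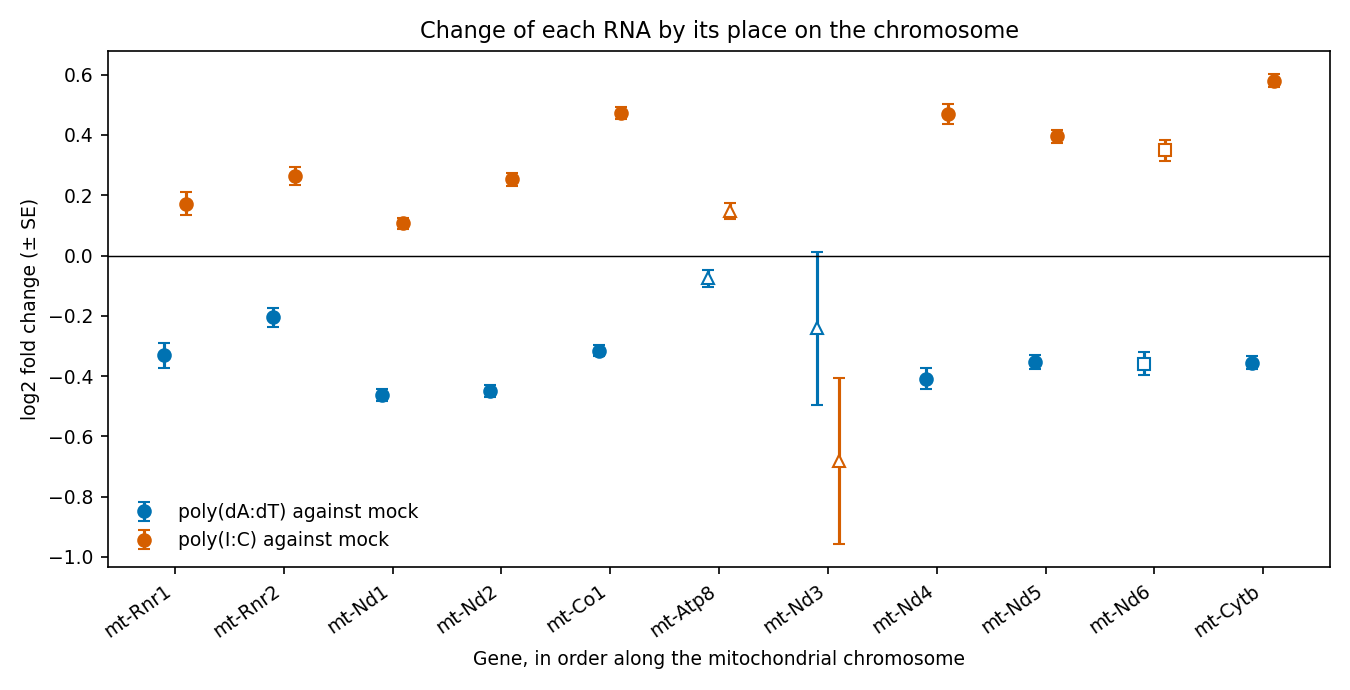
Log2 fold change ± SE of poly(dA:dT) and poly(I:C) against mock for 9 listed genes and the unlisted mt-Atp8 and mt-Nd3, in their order along the chromosome. Filled circles are listed heavy-strand genes, open squares are mt-Nd6, and open triangles are the unlisted genes. For the listed genes the poly(dA:dT) values lie between -0.46 and -0.21 and the poly(I:C) values reach from 0.11 at mt-Nd1 to 0.58 at mt-Cytb, while mt-Nd3 lies at -0.68 after poly(I:C).

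Among the other 27 genes of the mitochondrial chromosome, 3 passed the filter on low counts. mt-Atp8, the second mitochondrial ATP synthase subunit, had 154, 152 and 150.3 CPM with poly(dA:dT), 184, 179 and 169 with poly(I:C) and 161, 160 and 160.1 in mock cells. Its ranges did not overlap, and its log2 fold change was -0.08 ± 0.03 for poly(dA:dT) (adjusted p = 0.0175, edgeR) and 0.15 ± 0.03 for poly(I:C) (adjusted p = 9.5e-07). The call for poly(dA:dT) was lost with upper-quartile factors, with total counts, without mock replicate 1 and without poly(dA:dT) replicate 3, where the log2 fold change lay between -0.07 and -0.00.

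mt-Nd3, a complex I subunit with few counts, had 27, 32 and 30 counts with poly(dA:dT), 17, 26 and 16 with poly(I:C) and 44, 34 and 33 in mock cells. It was lower after poly(I:C), by -0.68 ± 0.28 on the log2 scale (adjusted p = 0.0198, edgeR), the opposite direction to the 9 called genes of the list. The adjusted p was 0.0538 with total counts, 0.0559 without mock replicate 3 and 0.0841 without poly(I:C) replicate 1. Of its windows 98.0% are shared with the nuclear pseudogene Gm28438, which had 8 to 16 counts per library.

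The 22 mitochondrial tRNA genes had few counts, with 19 at 0 in all 9 libraries. mt-Tp, the proline tRNA gene on the minus strand, had 151, 194 and 192 counts with poly(dA:dT), 250, 245 and 143 with poly(I:C) and 254, 199 and 191 in mock cells. It was higher after poly(I:C) than after poly(dA:dT), by 0.40 ± 0.10 on the log2 scale (adjusted p = 0.000489, edgeR), and was not called against mock for either agent (adjusted p = 0.127 for poly(dA:dT) and 0.0529 for poly(I:C)). Against mock, poly(I:C) passed the threshold with upper-quartile factors, total counts, a stricter filter, without mock replicate 3 or without poly(I:C) replicate 3. Because the kit does not mark strand, RNA of the opposite strand at mt-Tp cannot be told apart from it.

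The nuclear genes for subunits of the same complexes fell after both agents. Of 75 tested subunit genes of complexes I to V, poly(dA:dT) gave 73 lower and 2 without a call, against 26.2% of all genes called lower, with a median log2 fold change of -0.24. After poly(I:C), 73 of 75 were called lower and 2 were not called, against 36.3% of all genes, with a median of -0.51. The listed mitochondrial mRNAs called and the nuclear subunit mRNAs called were thus both lower after poly(dA:dT). With poly(I:C) the listed mitochondrial mRNAs called were higher while the nuclear ones called were lower. The unlisted mt-Nd3 was called lower after poly(I:C), as given above, and was not called after poly(dA:dT). The unlisted mt-Atp8 changed by only -0.08 ± 0.03 after poly(dA:dT), a call that was lost in some alternatives. The summed fibroblast markers were also lower after both agents, as given above, and their part in this was not tested.

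In complex I, 35 of 36 nuclear subunit genes were called lower after poly(dA:dT) and 34 of 36 after poly(I:C). The median log2 fold changes were -0.23 and -0.48. Of all genes tested, 26.2% and 36.3% were called lower, which also serves as the comparison for complexes II to V. Ndufb3, an accessory membrane subunit, averaged 46.9 ± 0.988 CPM after poly(dA:dT), 32.5 ± 2.13 after poly(I:C) and 59.0 ± 2.75 in mock cells (SD, n = 3 each). Its log2 fold change was -0.33 ± 0.05 and -0.87 ± 0.05 (SE) against mock. Ndufb7, Ndufa11 and Ndufs7, the last a core subunit that carries an iron-sulphur cluster, changed by -0.71, -0.67 and -0.66 on the log2 scale after poly(I:C). The 5 mitochondrial complex I mRNAs of the list rose by 0.11 to 0.47 in the same comparison.

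Complex II, succinate dehydrogenase, has no mitochondrially encoded subunit. All 4 of its genes fell after both agents, and after poly(I:C) Sdhd fell by 0.87, Sdhc by 0.72, Sdhb by 0.57 and Sdha by 0.29 on the log2 scale. In complex III, 8 of 9 nuclear genes were called lower after poly(dA:dT) and 9 of 9 after poly(I:C). Uqcrh, the hinge protein of the complex, averaged 106 ± 6.66 CPM after poly(dA:dT), 63.7 ± 5.12 after poly(I:C) and 147 ± 0.224 in mock cells, with log2 fold changes of -0.47 ± 0.03 and -1.20 ± 0.04. Uqcrb, Uqcr11 and Uqcrq changed by -0.76, -0.61 and -0.47 after poly(I:C), where mt-Cytb rose by 0.58.

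In complex IV all 11 nuclear genes fell after both agents, with medians of -0.30 and -0.55. Cox6b1, a subunit on the outer face of the complex, averaged 92.2 ± 4.01 CPM after poly(dA:dT), 64.6 ± 1.54 after poly(I:C) and 120.1 ± 2.096 in mock cells, with log2 fold changes of -0.38 ± 0.03 and -0.89 ± 0.04. Cox7b, Ndufa4 and Cox7a2 fell by 0.87, 0.84 and 0.80 after poly(I:C), while mt-Co1 rose by 0.47. In the ATP synthase all 15 tested nuclear genes fell after both agents, with medians of -0.27 and -0.58. Atp5k, a subunit of the membrane part, fell by 0.81 after poly(I:C), and Atp5g3 and Atp5g1, which encode the ring subunit c, by 0.69 and 0.67, and Atp5e by 0.63.

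**Figure D5:**
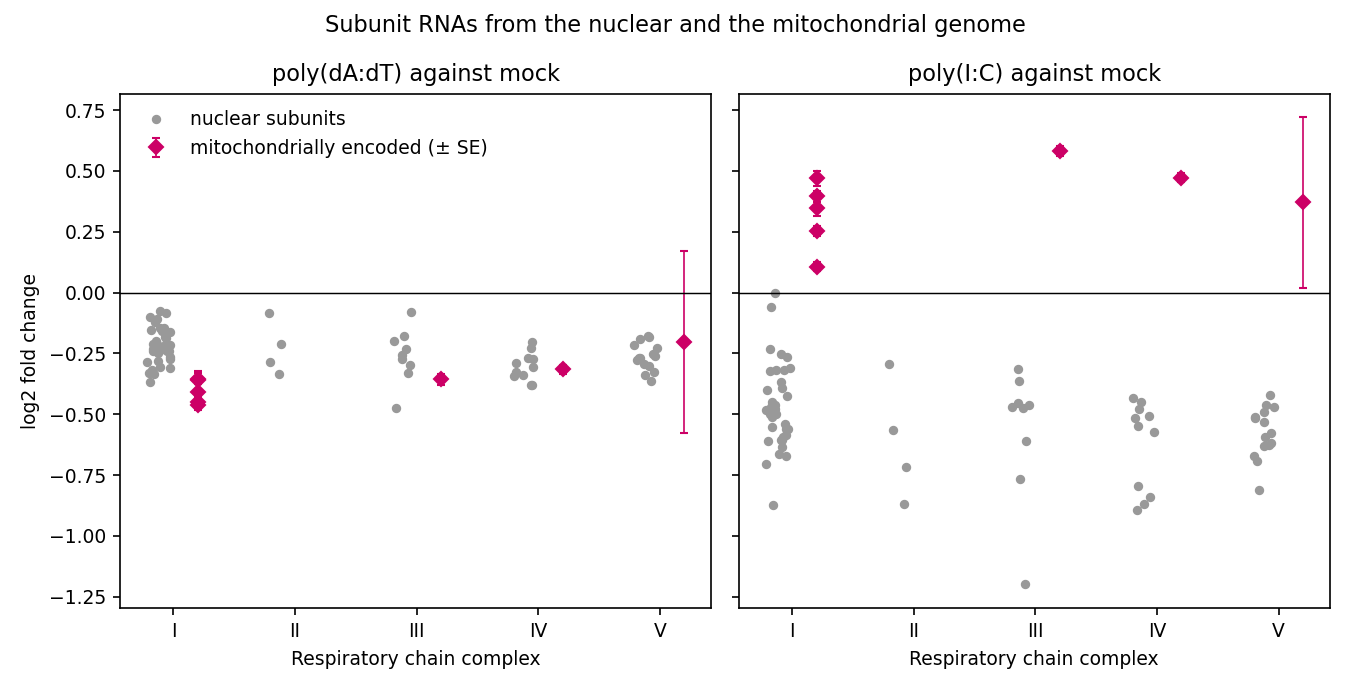
Log2 fold change against mock of nuclear subunit genes (circles) and of the mitochondrially encoded mRNAs of the list (diamonds, ± SE) by complex, for poly(dA:dT) on the left and poly(I:C) on the right. After poly(dA:dT) both kinds lie below 0, and after poly(I:C) the diamonds lie between 0.11 and 0.58 and the circles between -1.20 and 0.00.

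The genes listed for mitochondrial transcription, which include coactivator genes beside the transcription machinery itself, moved in both directions. Of 18 genes on that list, 6 were called higher and 2 lower after poly(dA:dT), against 26.6% and 26.2% of all genes, and 10 higher and 4 lower after poly(I:C), against 39.8% and 36.3%. Within that list, the coactivator genes Ppargc1a and Ppargc1b rose most after poly(I:C). Ppargc1a averaged 3.99 ± 0.247 CPM after poly(dA:dT), 9.39 ± 0.941 after poly(I:C) and 3.15 ± 0.407 in mock cells, with log2 fold changes of 0.36 ± 0.15 and 1.58 ± 0.13. Ppargc1b rose by 1.36 ± 0.12 after poly(I:C), with -0.13 ± 0.14 and no call after poly(dA:dT). Pprc1, the third member of that family, rose by 0.39 ± 0.03 and 0.66 ± 0.03, and the termination factor gene Mterf1a rose by 0.84 ± 0.17 after poly(I:C). The mitochondrial RNA polymerase Polrmt, named after its values were seen, was not called after poly(dA:dT), at 0.07 ± 0.05, and was called lower after poly(I:C), at -0.20 ± 0.05. With total counts, 11 transcription genes were higher after poly(dA:dT) and 2 were lower after poly(I:C).

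Of 29 tested genes for processing and stability of mitochondrial RNA, 19 were called higher and 2 lower after poly(dA:dT), where 26.6% and 26.2% of all genes were, and 19 higher and 5 lower after poly(I:C), where 39.8% and 36.3% of all genes were. Mtpap, the mitochondrial poly(A) polymerase, averaged 39.0 ± 2.21 CPM after poly(dA:dT), 51.0 ± 2.76 after poly(I:C) and 26.4 ± 1.15 in mock cells. Its log2 fold changes were 0.56 ± 0.05 and 0.95 ± 0.05. Trmt10c, a subunit of the mitochondrial RNase P that frees tRNAs from the precursor, rose by 0.49 ± 0.05 and 0.82 ± 0.05. Mrm1, a methyltransferase of the 16S RNA, rose by 0.66 ± 0.07 and 0.90 ± 0.07, and Tbrg4, also called Fastkd4, rose by 0.38 ± 0.03 and 0.71 ± 0.03. Hsd17b10 and Slirp, named after their values were seen, were the 2 genes called lower after poly(dA:dT), at -0.27 ± 0.04 and -0.30 ± 0.09. Both were also called lower after poly(I:C), at -0.66 ± 0.04 and -0.37 ± 0.09. Without poly(dA:dT) replicate 2 the lower genes after poly(dA:dT) numbered 1, and with total counts those after poly(I:C) numbered 3.

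The degradosome of mitochondrial RNA consists of the helicase Supv3l1 and the ribonuclease Pnpt1. Supv3l1 averaged 57.8 ± 1.89 CPM after poly(dA:dT), 99.5 ± 2.62 after poly(I:C) and 34.6 ± 2.46 in mock cells, and rose by 0.75 ± 0.05 and 1.53 ± 0.04 on the log2 scale. Pnpt1 averaged 55.5 ± 1.27, 89.4 ± 3.56 and 59.3 ± 3.01 CPM in the same groups, with -0.09 ± 0.04 and no call after poly(dA:dT) and a rise of 0.60 ± 0.04 after poly(I:C). Rexo2, which degrades short oligonucleotides, was lower after both, by -0.12 ± 0.04 and -0.42 ± 0.04. Rnaseh1, which removes RNA from RNA-DNA hybrids, had 0.20 ± 0.09 with no call after poly(dA:dT) and rose by 0.48 ± 0.09 after poly(I:C). Of the 5 genes on this list, 1 was called higher and 1 lower after poly(dA:dT), where 26.6% and 26.2% of all genes were, and 3 higher and 1 lower after poly(I:C), where 39.8% and 36.3% of all genes were called. The counts for poly(dA:dT) were 1 to 2 higher and 0 to 2 lower over the alternatives, among them leaving out mock replicate 1, mock replicate 2, poly(I:C) replicate 3 or poly(dA:dT) replicate 1, each of which gave 2 lower.

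Of 19 genes for replication and upkeep of mitochondrial DNA, 11 were called higher and 2 lower after poly(dA:dT), where 26.6% and 26.2% of all genes were, and 11 higher and 6 lower after poly(I:C), where all genes had 39.8% and 36.3%. Primpol, a primase-polymerase, averaged 15.4 ± 0.203 CPM after poly(dA:dT), 24.5 ± 0.192 after poly(I:C) and 9.25 ± 0.903 in mock cells, and rose by 0.75 ± 0.09 and 1.42 ± 0.08. Mgme1, an exonuclease of mitochondrial DNA, rose by 0.59 ± 0.06 and 1.21 ± 0.06. Polg2, the accessory subunit of the mitochondrial DNA polymerase, rose by 0.53 ± 0.09 and 1.00 ± 0.09, and Top3a, a topoisomerase, by 0.52 ± 0.05 and 0.78 ± 0.05. With total counts poly(dA:dT) gave 1 lower gene and poly(I:C) gave 3, and without mock replicate 1 they numbered 1 after poly(dA:dT).

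A search over nuclear genes named those whose levels over the 9 libraries lay nearest to the mean pattern of the 10 mitochondrial RNAs. That mean gave all 10 equal weight, mt-Atp6 with its few counts included, and the part of mt-Atp6 in the ranking was not tested. Likeness was the Euclidean distance of centred log2 CPM over 9 libraries among 9606 genes with a mean of at least 10 CPM, where the 10 members themselves lay at 0.188 to 1.11. The nearest were Igfbp3 at 0.237, Dcp2 at 0.251, Oxr1 at 0.252, Ahr at 0.267 and Crebrf at 0.284. Igfbp3, a secreted carrier of insulin-like growth factors, averaged 30.8 ± 0.406 CPM after poly(dA:dT), 52.4 ± 1.27 after poly(I:C) and 41.2 ± 0.368 in mock cells. Dcp2, an mRNA decapping enzyme, averaged 47.8 ± 2.55, 77.6 ± 1.90 and 55.6 ± 0.388 CPM in these groups. All 5 were chosen for this pattern, so their levels carry no test.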

How the data were processed

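RNA-seq of 9 libraries was deposited by the authors as unnormalized read counts for each Ensembl gene. Per the submitters' processing notes, the authors used TopHat2 2.1.0, HTSeq and DESeq2 with GRCm38.p4. Neither the gene annotation nor the strand option nor the handling of multi-mapping reads is stated there. Symbols, positions and transcript sequences came from GENCODE M21 on GRCm38.

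The two-sided quasi-likelihood test of edgeR 4.0.16 (R 4.3.3, robust) was applied to the counts, with trimmed-mean scaling, filterByExpr by group and 1 fit over all libraries. Adjusted p-values are by Benjamini-Hochberg over 14176 genes. CPM uses the scaled library sizes, and SE is the log2 fold change over the root of the F statistic. The procedure was tested on simulated data. A count of 0 allows up to 3 counts, or 0.107 to 0.180 CPM, for counting error only. No pair of replicates agreed within sampling noise. Windows of 50 bases were matched to annotated nuclear transcripts. The members and gene lists were chosen with earlier results of these data known. Named genes are all members, up to 4 called genes per list with the largest change after poly(I:C) and a mean of at least 1 CPM, the 5 nearest in pattern, and check genes. Prorp and Atp5pb were not matched to a symbol. 1 further gene list is not reported here. Alternatives were other scalings, filters, DESeq2 1.42.0, single libraries left out and a replicate block.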

Additional observations from a re-analysis of the deposited data

How the results depend on the processing

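Of the 10 listed genes, 9 were called in each comparison in each of the alternatives, including other scalings, other filters, DESeq2, a replicate block and the omission of any 1 library. Over all alternatives 536 of 537 log2 fold changes of the 10 genes kept their direction and side of the threshold. The exception was mt-Atp6 for poly(dA:dT) against mock, at 0.22 without mock replicate 1 and with a range of -0.39 to 0.22 over all alternatives, and with a filter of 50 counts it was not tested. Total counts in place of trimmed-mean scaling moved the median of all genes by 0.11 for poly(I:C) against mock, and the median of the 10 genes relative to it was then 0.32. With genes that changed less than 2-fold as denominator, the difference in share of counts was 0.134 percentage points for poly(I:C) against mock and 0.192 for poly(I:C) against poly(dA:dT), against 0.109 and 0.168 with all counts. Same-numbered libraries of different groups correlated at -0.0166 to 0.0208, and differently numbered ones at -0.0375 to 0.0261. No pairing by replicate number was thus seen, which does not show that there was none. The replicate block called 3723 higher and 3661 lower genes for poly(dA:dT) against mock, 5615 and 5109 for poly(I:C) against mock, and 4381 and 4524 for poly(I:C) against poly(dA:dT). Calls of the unlisted mt-Atp8, mt-Nd3 and mt-Tp were lost or gained in 12 cases. The few counts on mt-Atp6 limit its values, and the unstranded kit limits every statement on mt-Nd6 and mt-Tp.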
